A study of Homo sapiens with 12 samples.

Results

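The genes described here are 10 targets of the heat shock factor HSF1: HSPA1A, HSPA1B, HSPA6, HSPA8, HSPH1, HSP90AA1, CHORDC1, DNAJB1, BAG3 and HSPB1. They were matched by symbol and are 10 of the 46350 named genes in the count files. All 10 passed the filter on low counts, as did 17133 genes in all. The set was chosen from the data, because HSPA6 and CHORDC1 had among the largest effects of paeonol, so values for paeonol are given for these genes as a description and without a test. The libraries come from SKOV3, a cisplatin-sensitive line of human epithelial ovarian cancer, and from SKOV3/DDP, its cisplatin-resistant counterpart. Each line was sequenced untreated and after treatment with paeonol (PAE), which gives 4 groups of 3 libraries. The names of the PAE libraries as deposited carry a number that differs between the lines and whose meaning the sources used here do not give, so an equal dose in both lines cannot be assumed. The labels give neither dose nor duration of PAE, name no batch and do not say whether replicates were separate cultures, so p-values measure the spread between these libraries, which may be technical. Each line is a single cell line, and bulk RNA cannot tell a smaller share of expressing cells from less RNA per cell.

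HSF1 is the main transcription factor of the heat shock response. In unstressed cells it is held inactive by chaperones, and unfolded protein releases it to bind heat shock elements, which are inverted repeats of a short unit, in the promoters of its targets. Those targets encode the machinery that refolds or removes damaged protein: the HSP70 proteins, their J-domain partners and nucleotide exchange factors, HSP90 and its co-chaperones, and the small heat shock proteins. Some targets, such as HSPA8 and HSP90AA1, are abundant without stress, whereas HSPA6 is close to silent until cells are stressed.

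The promoters are shown because the 10 genes differ in exact matches to the heat shock element. Binding of HSF1 was not measured. RefSeq promoter windows of GRCh38.p14 (250 bases before to 50 after a transcript start) matched all 10 genes by symbol. They were searched on both strands for 3 units in a row, GAANNTTCNNGAA or TTCNNGAANNTTC, which are reverse complements of each other. Of 35116 windows of this length, 0.49% held such a run. It was found for 4 of the 10 genes, HSPA6, CHORDC1, HSPA8 and 1 of the starts of HSP90AA1. A further 4 genes (HSPA1A, HSPA1B, HSPB1 and DNAJB1) held only a pair of units, GAANNTTC or TTCNNGAA, a pattern contained in the longer one and present in 13.5% of all windows. HSPH1 and BAG3 held neither, which says only that these letters are not in the window. The 250 bases before the start follow, 5′ to 3′ on the strand of the gene, with the longer run in capitals. They are chr1:161524290-161524539 (plus strand) for HSPA6, chr11:90223050-90223299 (minus) for CHORDC1, chr11:123062137-123062386 (minus) for HSPA8 and chr14:102087045-102087294 (minus) for HSP90AA1.
HSPA6: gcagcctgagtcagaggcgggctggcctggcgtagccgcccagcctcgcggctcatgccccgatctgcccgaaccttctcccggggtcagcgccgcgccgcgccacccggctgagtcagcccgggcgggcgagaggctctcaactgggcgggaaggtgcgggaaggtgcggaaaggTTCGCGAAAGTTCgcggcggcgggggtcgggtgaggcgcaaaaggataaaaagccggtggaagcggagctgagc
CHORDC1: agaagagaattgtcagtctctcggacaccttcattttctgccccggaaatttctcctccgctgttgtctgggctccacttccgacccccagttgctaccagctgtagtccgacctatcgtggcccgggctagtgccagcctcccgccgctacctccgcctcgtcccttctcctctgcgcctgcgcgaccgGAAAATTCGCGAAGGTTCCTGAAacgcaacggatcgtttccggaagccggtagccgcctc
HSPA8: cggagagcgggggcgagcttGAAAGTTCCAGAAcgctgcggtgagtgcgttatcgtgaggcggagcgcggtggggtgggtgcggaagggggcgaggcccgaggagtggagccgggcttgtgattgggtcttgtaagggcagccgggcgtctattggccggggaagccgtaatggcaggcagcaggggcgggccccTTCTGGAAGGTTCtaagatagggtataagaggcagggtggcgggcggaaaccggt
HSP90AA1: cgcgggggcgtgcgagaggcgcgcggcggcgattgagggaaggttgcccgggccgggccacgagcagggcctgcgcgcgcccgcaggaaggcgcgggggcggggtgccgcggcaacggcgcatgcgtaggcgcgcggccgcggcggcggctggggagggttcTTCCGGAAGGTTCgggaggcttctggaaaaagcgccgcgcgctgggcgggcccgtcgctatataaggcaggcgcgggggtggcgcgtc

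The single run of HSPA6 began 74 bases before the start and that of HSP90AA1 began 88 bases before it. CHORDC1 held 3 overlapping runs, the first of them 60 and the last 50 bases before the start, which overlap to form an unbroken stretch. HSPA8 held 2, at 230 and 55 bases before the start. Of 49 other chaperone and heat shock genes with a window, 5 (10.2%) held the longer run: HSP90AB1, DNAJA1, DNAJB6, HSPD1 and SERPINH1.

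**Figure D1:**
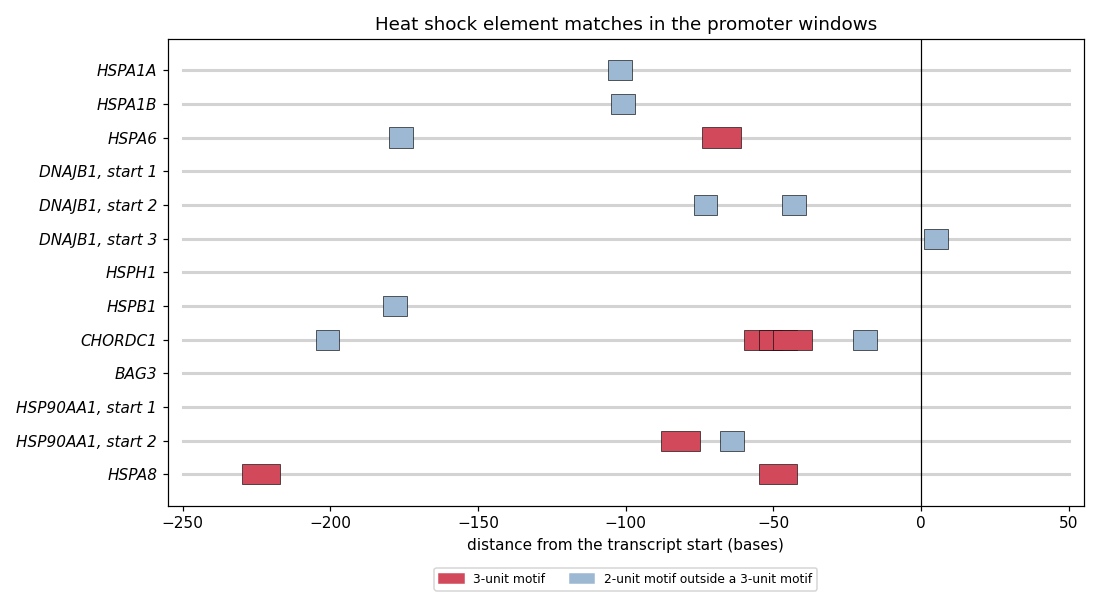
Matches to the heat shock element in the promoter window of each gene, by distance from the transcript start in bases (250 before to 50 after). Each grey line is 1 window, red boxes are the 3-unit motif and blue boxes a 2-unit motif outside it. CHORDC1 has 3 overlapping red boxes, HSPA8 has 2, and HSPA6 and 1 start of HSP90AA1 have 1 each.

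CPM below are read counts relative to the total of a library, scaled by the TMM factors (which adjust totals for composition) of a fit of all 12 libraries. Library totals lay between 14610008 and 18263479 counts, and 3 counts corresponded to between 0.164 and 0.206 CPM before TMM scaling. The untreated SKOV3 libraries stood apart: they had between 17951 and 18240 genes with a count, against 21469 to 23194 in the other 9, and TMM factors of 0.644 to 0.674 against 0.975 to 1.23. All 5 epithelial markers averaged over 1 CPM in every group. EPCAM lay between 0.426 and 1.95 CPM in untreated SKOV3 and between 271 and 313 CPM in untreated SKOV3/DDP, and the 4 leukocyte markers summed to at most 0.526 CPM in any library. Of 4 ovarian or SKOV3 markers, 3 averaged over 1 CPM in untreated SKOV3 and 2 in untreated SKOV3/DDP. PAX8 averaged 29.7 and 4.13 CPM there, ERBB2 306 and 96.5, and MUC16 2.09 and 0.390, while WT1 had 0 and 2 counts. Over 1 CPM were also 2 and 1 of 5 fibroblast markers and 1 and 0 of 3 endothelial markers.

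HSPA6, an HSP70 protein made almost only under stress, varied most. In untreated SKOV3 it stood at 6.12, 5.79 and 6.61 CPM (replicates 1 to 3), a narrow range. In SKOV3 with PAE it stood at 796, 72.8 and 1.32 CPM. Replicate 1 was thus far above every untreated library, while replicate 3 was below all of them, and the group mean of 290.2 ± 439.8 CPM (SD, n = 3) was smaller than its SD. In untreated SKOV3/DDP the values were 0.173, 105 and 0.428 CPM, which is 1665 counts in replicate 2 against 3 and 7 counts in the others. With PAE, SKOV3/DDP had 0.147, 0 and 0.33 CPM, or 9 counts in the group. The within-group range on the log2(CPM + 1) scale was 8.43 in SKOV3 with PAE, where 0 of the 17133 genes had a larger one, and 6.50 in untreated SKOV3/DDP, where 1 gene did.

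HSPA1A and HSPA1B encode nearly the same stress-inducible HSP70 protein from neighbouring single-exon genes on chromosome 6. The gene lengths in the files are 5.00 times their span on the chromosome, so reads of alternate copies may be included, and the split of reads between the pair is uncertain. Their upstream sequences, chr6:31815293-31815542 for HSPA1A and chr6:31827488-31827737 for HSPA1B (both plus strand), are printed because they bear on how alike the pair is. They are identical at 235 of 249 bases once shifted by 1, and each holds the same pair of units, in capitals.
HSPA1A: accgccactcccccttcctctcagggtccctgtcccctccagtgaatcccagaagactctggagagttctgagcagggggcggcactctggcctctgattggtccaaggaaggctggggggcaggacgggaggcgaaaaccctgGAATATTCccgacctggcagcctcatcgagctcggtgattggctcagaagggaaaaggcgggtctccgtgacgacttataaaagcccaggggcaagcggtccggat
HSPA1B: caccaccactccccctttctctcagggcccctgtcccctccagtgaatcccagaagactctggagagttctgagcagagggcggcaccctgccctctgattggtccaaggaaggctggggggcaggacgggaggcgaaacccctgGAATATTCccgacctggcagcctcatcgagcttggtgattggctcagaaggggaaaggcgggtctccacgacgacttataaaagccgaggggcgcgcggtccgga

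HSPA1B stood at 16.2, 15.2 and 15.5 CPM in untreated SKOV3 and at 223, 32.7 and 9.52 CPM with PAE. It stood at 14.3, 325 and 15.8 CPM in untreated SKOV3/DDP and at 20.6, 19.6 and 19.4 CPM with PAE. The 2 high libraries were the same ones as for HSPA6, and outside SKOV3 with PAE and untreated SKOV3/DDP the replicates lay close together. HSPA1A was far lower: 4.17, 4.69 and 1.10 CPM in untreated SKOV3, and 13.2, 3.45 and 0.474 CPM with PAE. In SKOV3/DDP it had 0, 4 and 4 counts untreated and 0 counts in all 3 libraries with PAE, which allows up to 0.0501 CPM over that group (3 counts; counting error only). HSPA1A held 6.63% to 23.6% of the summed counts of the pair in untreated SKOV3 but 0.0777% in SKOV3/DDP replicate 2, where HSPA1B alone had 5145 counts.

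HSPA8, the constitutive HSP70 of the cytosol, was lowest in untreated SKOV3, at 295, 149.7 and 185 CPM. It stood at 3194, 1398 and 1465 CPM in SKOV3 with PAE and at 1927, 2435 and 1109.7 CPM in untreated SKOV3/DDP. In SKOV3/DDP with PAE the values were 474, 507 and 1798 CPM, so replicate 3 lay within the untreated range and the other 2 below it. HSPH1 (chromosome 13, 31134973 to 31162388, GRCh38), an HSP110 protein that exchanges nucleotide on HSP70, was lowest there too, at 33.6, 14.9 and 24.2 CPM. It reached 1057, 237 and 168 CPM in SKOV3 with PAE, 250.1, 2219.9 and 255 CPM in untreated SKOV3/DDP, and 477, 512 and 659.6 CPM in SKOV3/DDP with PAE. As with HSPA6, the high values were in replicate 1 of SKOV3 with PAE and replicate 2 of untreated SKOV3/DDP.

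HSP90AA1, the inducible cytosolic HSP90, stood at 169.6, 154 and 148 CPM in untreated SKOV3 and at 3493, 1128 and 1122 CPM with PAE. It stood at 1020.1, 2808 and 777 CPM in untreated SKOV3/DDP and at 1188, 1036 and 1959 CPM with PAE. Every library outside untreated SKOV3 was thus above every untreated SKOV3 library. CHORDC1, a co-chaperone that binds HSP90, had 7, 1 and 0 counts in untreated SKOV3, or 0.621, 0.0852 and 0 CPM. It stood at 42.8, 1.37 and 6.0 CPM in SKOV3 with PAE, where replicate 1 carried most of the signal. In untreated SKOV3/DDP it stood at 16.0, 41.1 and 3.55 CPM, and in SKOV3/DDP with PAE at 18.3, 20.9 and 16.2 CPM, the tightest of the 3 groups in which it was readily counted.

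DNAJB1 (chromosome 19, 14514769 to 14530597, GRCh38), the J-domain protein that hands substrates to HSP70, was at 489, 508 and 506 CPM in untreated SKOV3 and at 3274, 767 and 216 CPM with PAE. In SKOV3/DDP it was at 159, 1599.8 and 166 CPM untreated and at 427, 326 and 414 CPM with PAE. The values with PAE in SKOV3 thus lay on both sides of the untreated ones. BAG3 (chromosome 10, 119651380 to 119677819, GRCh38), an HSP70 exchange factor that directs clients to autophagy, was at 196, 122 and 167 CPM in untreated SKOV3 and at 503, 145 and 62.7 CPM with PAE, again on both sides. It was at 53.7, 549.9 and 54.6 CPM in untreated SKOV3/DDP and at 211, 157 and 185 CPM with PAE. HSPB1 (chromosome 7, 76302673 to 76304292, GRCh38), the small heat shock protein HSP27, was the only one of the 10 with its highest library in untreated SKOV3, at 1133, 749.7 and 972 CPM. It was at 938, 393 and 101 CPM in SKOV3 with PAE, at 329.5, 674 and 367 CPM in untreated SKOV3/DDP, and at 273, 229 and 162 CPM in SKOV3/DDP with PAE.

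**Figure D2:**
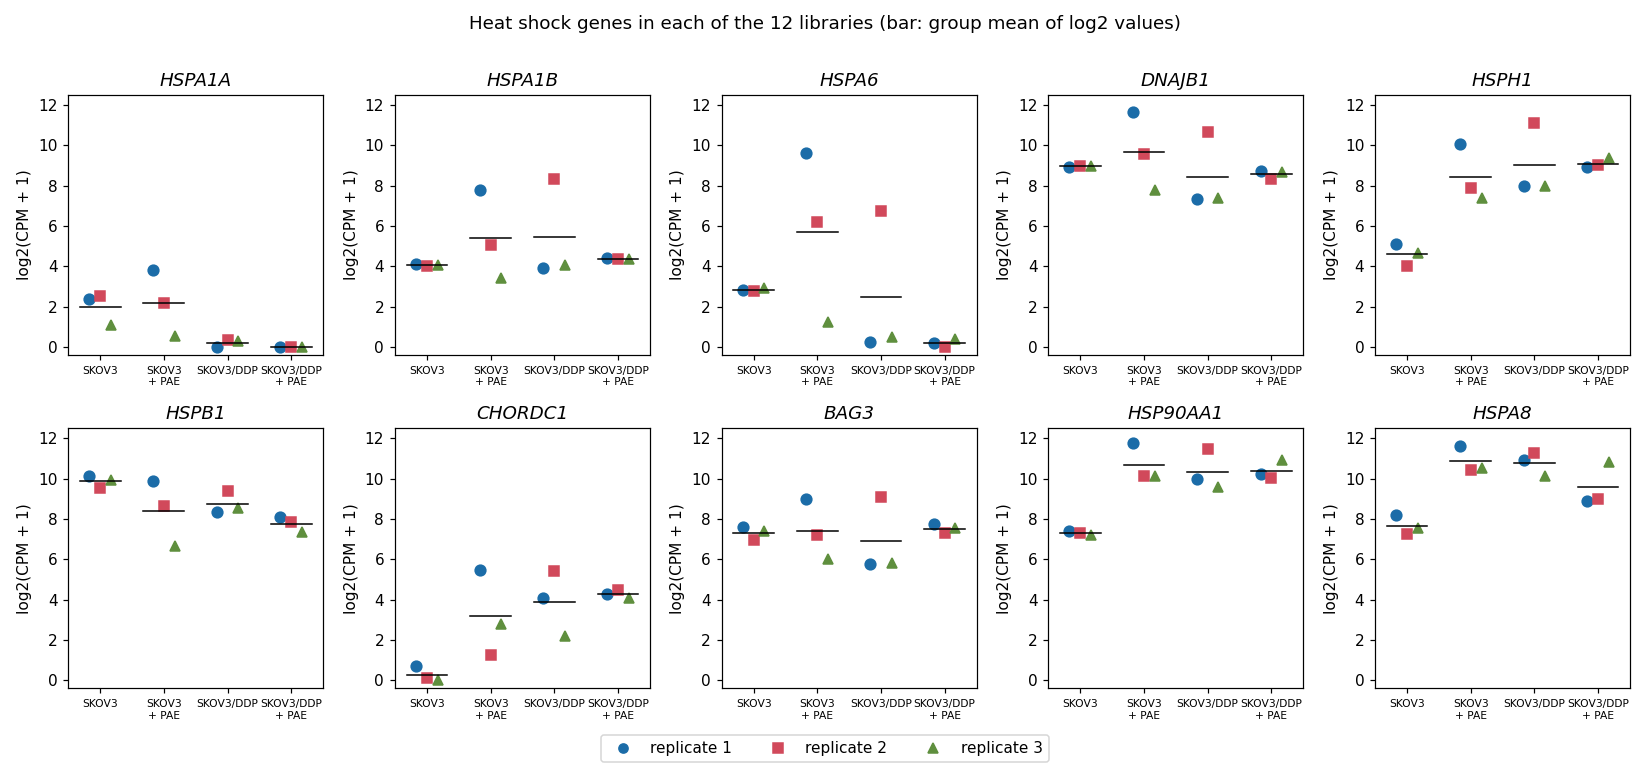
Level of each heat shock gene in the 12 libraries, as log2(CPM + 1), by group; symbols and colours give the replicate and the bar the group mean of the log2 values. In all 10 panels replicate 1 is highest within SKOV3 with PAE and replicate 2 within untreated SKOV3/DDP, for example HSPA6 at 796 and 105 CPM. For HSPA1A in untreated SKOV3/DDP, replicates 2 and 3 hold 4 counts each.

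Per kilobase of gene length, the median level over a group's libraries was highest for HSPB1 in untreated SKOV3 (1251 CPM per kb), followed by DNAJB1 (124). In SKOV3 with PAE it was highest for HSPA8 (641 CPM per kb) and HSPB1 (505), whose ranges overlapped. In untreated SKOV3/DDP the order began with HSPA8 (843 CPM per kb), HSPB1 (473) and HSP90AA1 (259), each overlapping the next in range. HSP90AA1 (302 CPM per kb) and HSPB1 (295) led in SKOV3/DDP with PAE, and their ranges overlapped. At the other end, HSPA1A had a median of 0.102 CPM per kb in untreated SKOV3/DDP and 0 with PAE, HSPA6 had 0.182 and 0.0625, and CHORDC1 had 0.0131 CPM per kb in untreated SKOV3.

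Within 2 of the 4 groups the 10 genes tended to be highest in the same library. All 10 were highest in replicate 1 among the libraries of SKOV3 with PAE, where 32.8% of all genes tested were. On the TMM scale all 10 were highest in replicate 2 of untreated SKOV3/DDP, where 39.3% of all genes were. There HSPA1A had 4 counts in each of replicates 2 and 3 (0.253 and 0.245 CPM), and by library size alone replicate 3 was the higher. The highest library exceeded the lowest by at least 4 times on the CPM + 1 scale for 8 of the 10 in SKOV3 with PAE, against 1.45% of all genes, and for 6 of the 10 in untreated SKOV3/DDP, against 1.25%. It did so for 0 of the 10 in untreated SKOV3 (0.905% of all genes) and for 0 in SKOV3/DDP with PAE (0.665%). The pattern was noticed in these data, and HSPA6 and CHORDC1 were picked by values that include these libraries, so the counts are a description. The same libraries were highest for 37 and 38 of 57 other chaperone and heat shock genes. No label separates these 2 libraries from their replicates, and the share of mitochondrial counts, 1.82% and 9.57%, lay below or between those of the other replicates. What set them apart was not tested.

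**Figure D3:**
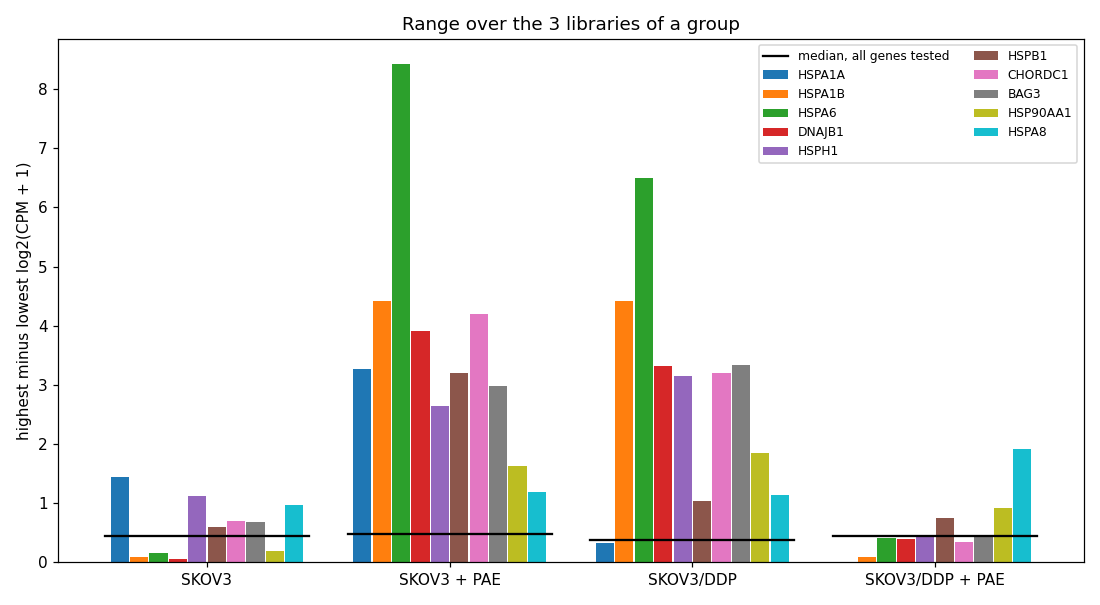
Range of each heat shock gene over the 3 libraries of a group, as the highest minus the lowest log2(CPM + 1); the black line is the median range of all genes tested. In SKOV3 with PAE the bars reach 8.43 (HSPA6) and in untreated SKOV3/DDP 6.50, against medians of 0.48 and 0.38.

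These library differences bear directly on the values for PAE. In SKOV3, 7 of the 10 genes had a fitted log2 fold change of at least 1, as did 44.5% of all genes, and 4 of the 10 (HSPH1, CHORDC1, HSPA8 and HSP90AA1) had no overlap between the groups, as did 43.5% of all genes in this direction. The largest values were 6.13 ± 1.35 (SE) for CHORDC1, 5.55 ± 1.90 for HSPA6 and 4.33 ± 0.86 for HSPH1. HSP90AA1 had 3.60 ± 0.53, HSPA8 3.27 ± 0.53, HSPA1B 2.50 ± 1.08 and DNAJB1 1.5 ± 0.84. HSPA1A had 0.78 ± 0.88, BAG3 0.55 ± 0.77 and HSPB1 -1.0 ± 0.53, and these 3 and DNAJB1 were within 2 SE of 0. Without replicate 1 of SKOV3 with PAE, the value was 2.59 for HSPA6, 3.96 for CHORDC1, 0.44 for HSPA1B and -0.02 for DNAJB1. For HSPH1 (3.07), HSP90AA1 (2.84) and HSPA8 (2.78) it stayed above 2.5 without that library. By raw counts the CHORDC1 ratio of SKOV3 with PAE to untreated SKOV3 was 68.3 (95% counting interval 34.5 to 159, counting error only), from 877 against 8 counts, and 15.9 (7.83 to 37.4) without replicate 1 of SKOV3 with PAE.

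A second feature moved with the PAE values in SKOV3. Across 15683 genes with a GC content, which share the same 6 libraries, log2 fold changes correlated with the GC content of the transcript at r = -0.757. CHORDC1 (35.0% GC), HSPH1 (40.0%), HSP90AA1 (45.2%) and HSPA8 (47.0%) lie toward the low end, whereas HSPB1 (64.3%), HSPA1A (59.7%), HSPA1B (58.7%), HSPA6 (58.4%), BAG3 (56.9%) and DNAJB1 (53.0%) have more. After a spline of log2 CPM on GC content and transcript length was removed from each library, CHORDC1 had 2.79, HSPH1 1.40, HSP90AA1 1.90 and HSPA8 2.37. In the same setting HSPA6 had 7.67, HSPA1B 4.60, DNAJB1 2.45, BAG3 2.30 and HSPB1 2.0, the last with its sign changed. The median over all genes tested also moved with the scaling: it was 0.48 with TMM and 1.36 with library size alone, which puts each gene about as much higher. Of all genes, 7292 were higher and 5603 lower with PAE in SKOV3 with TMM, and 9058 and 3834 with library size alone.

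In SKOV3/DDP, 0 of the 10 genes had a log2 fold change of at least 1 with PAE (12.3% of all genes) and 4 had one of at most -1 (15.9% of all genes). The 4 were HSPA6 at -7.79 ± 2.43, HSPA1A at -4.51 ± 2.4, HSPA1B at -2.57 ± 1.08 and HSPB1 at -1.04 ± 0.53. The value for HSPA1A rests on 8 counts in the untreated group and 0 with PAE. HSPB1 was the only one of the 10 whose groups did not overlap, lower with PAE, as 23.7% of all genes were. The others lay between -0.98 (HSPA8) and -0.13 (CHORDC1). Without replicate 2 of untreated SKOV3/DDP, HSPA6 moved to -0.94 and HSPA1B to 0.40, while BAG3 (1.77), DNAJB1 (1.26) and HSPH1 (1.12) passed 1. With library size alone 2889 of all genes were higher and 1913 lower with PAE in SKOV3/DDP, against 2014 and 2512 with TMM, and the fitted values of CHORDC1 (0.10), HSP90AA1 (0.07) and BAG3 (0.01) lay above 0.

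**Figure D4:**
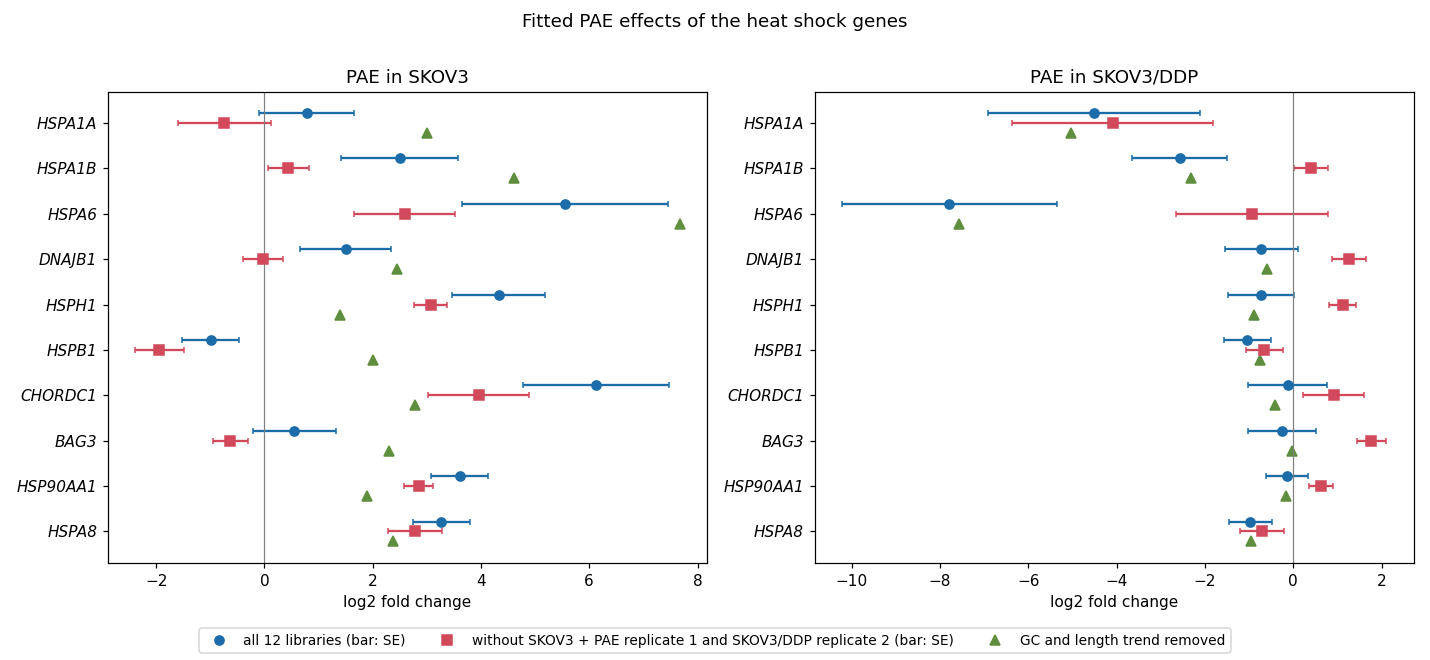
Fitted log2 fold changes with PAE in SKOV3 (left) and SKOV3/DDP (right) for the 10 genes: blue circles use all 12 libraries and red squares leave out replicate 1 of SKOV3 with PAE and replicate 2 of untreated SKOV3/DDP (bars, SE), and green triangles remove a GC and length trend. HSPA6 moves from 5.55 to 2.59 in SKOV3 and from -7.79 to -0.93 in SKOV3/DDP without the 2 libraries.

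The lines were compared without PAE to ask how the cisplatin-resistant cells differ at baseline; the comparison did not choose the genes, but it shares the untreated libraries with those that did. For HSPA6 and CHORDC1, picked on PAE effects that rest on these libraries, values are therefore given without a p-value, and counts that include them are a description. In untreated SKOV3/DDP, 5 of the 10 genes were higher than in untreated SKOV3 at an adjusted p under 0.05 (edgeR quasi-likelihood test), against 45.8% of all genes, and 1 was lower, against 36% of all genes. CHORDC1 had a value of 6.41 ± 1.35 (SE), with 987 against 8 counts and a ratio of 86.7 (95% counting interval 43.8 to 201), and of 43.4 (21.8 to 101) without SKOV3/DDP replicate 2. HSPH1 was higher by 5.23 ± 0.90 (adjusted p = 6.84e-05), HSP90AA1 by 3.29 ± 0.52 (3.05e-05) and HSPA8 by 3.12 ± 0.53 (5.7e-05). These 4 had no overlap between the lines, as 46.5% of all genes did in that direction. HSPH1, HSP90AA1 and HSPA8 stayed past the threshold with any 1 library left out. With 1 library left out, the values ranged from 5.37 to 8.67 (CHORDC1, as a description) and 3.39 to 5.64 (HSPH1). They ranged from 2.52 to 3.57 for HSP90AA1 and 2.86 to 3.45 for HSPA8, the lowest for each of the 4 without SKOV3/DDP replicate 2. HSPA1B was higher by 2.92 ± 1.10 (adjusted p = 0.0231), but its groups overlapped, and without SKOV3/DDP replicate 2 its value was -0.05 (adjusted p = 0.961). With the counts of HSPA1A and HSPA1B summed, the value was 2.64 ± 1.08 (adjusted p = 0.0344). That sum rests on the same library: it was 248, 5149 and 262 counts in untreated SKOV3/DDP, against 230, 233 and 196 in untreated SKOV3.

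HSPA1A was lower in untreated SKOV3/DDP by 4.29 ± 1.16 on the log2 scale (adjusted p = 0.00387), with a ratio of SKOV3 to SKOV3/DDP of 20.4 by counts (95% counting interval 10 to 48.5). It and HSPB1 had no overlap between the lines, lower in SKOV3/DDP, as 36.7% of all genes had. HSPB1 (-1.06 ± 0.53, adjusted p = 0.0771), BAG3 (0.44 ± 0.77, 0.601) and DNAJB1 (0.36 ± 0.83, 0.697) did not pass, and HSPA6 had 2.51 ± 1.69. Leaving out SKOV3/DDP replicate 2 turned HSPA6 to -4.33, DNAJB1 to -1.62 (adjusted p = 0.0442) and BAG3 to -1.57 (0.023), and HSPB1 passed at -1.44 (0.0351), so that 5 of the 10 were lower, against 35% of all genes in that fit. In this comparison too, fold changes correlated with GC content across genes (r = -0.471). With the GC and length trend removed, 8 of the 10 were higher, against 36.8% of all genes in that fit, HSPA6 (4.42), BAG3 (2.05, adjusted p = 0.0385) and HSPB1 (1.73, 0.0114) among them, and HSPA1A (-2.28, 0.112) no longer passed.

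With PAE in both lines, 2 of the 10 genes were lower in SKOV3/DDP at an adjusted p under 0.05 (27.1% of all genes) and 0 were higher (27.5%). As above, HSPA6 and CHORDC1 are described without a p-value, since the PAE libraries of both lines entered the choice. HSPA6 had a value of -10.83 ± 2.58, from 15165 counts in SKOV3 with PAE against 9 in SKOV3/DDP with PAE, a ratio of 1804 (95% counting interval 949.9 to 3945, counting error only). Even the lowest SKOV3 library with PAE, at 1.32 CPM, was above the highest of SKOV3/DDP, at 0.33 CPM. Without SKOV3 with PAE replicate 1 the value was -7.87 and the ratio 251 (132 to 549). HSPA1A, at 304 against 0 counts, was at least 108-fold higher in SKOV3 with PAE than in SKOV3/DDP with PAE (group at 0 set to 3 counts over the group; adjusted p = 0.000404). Replicate 1 held 227 of the 304 counts, and without it the bound was at least 39.7-fold. The split of reads between HSPA1A and HSPA1B is uncertain. With their counts summed, the value was -2.24 ± 1.06 and did not pass (adjusted p = 0.087, edgeR). HSPA6 and HSPA1A were the genes without overlap between the lines, lower in SKOV3/DDP, as 29.8% of all genes were. Fold changes here did not follow GC content (r = 0.00208 across genes), and with the trend removed HSPA6 had -10.81 and HSPA1A -10.32.

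Of the other 8 genes, the 7 beside CHORDC1 did not pass. HSPA8 (-1.12 ± 0.49, adjusted p = 0.0647), DNAJB1 (-1.87 ± 0.85, 0.0764), HSPB1 (-1.11 ± 0.53, 0.0914) and HSPA1B (-2.15 ± 1.06, 0.0995) had lower fitted values in SKOV3/DDP. BAG3 (-0.36 ± 0.77, 0.714), HSP90AA1 (-0.46 ± 0.48, 0.439), CHORDC1 (0.15 ± 0.90) and HSPH1 (0.17 ± 0.75, 0.859) were within 1 SE of 0. The outcome depended on single libraries of SKOV3 with PAE. Without replicate 1, CHORDC1 had a value of 2.31, and without replicate 3, DNAJB1 (-2.38, adjusted p = 0.0207), HSPB1 (-1.59, 0.0031) and HSPA1B (-2.69, 0.039) were lower. Without replicate 3 of SKOV3/DDP with PAE, HSPA8 was lower by 2.04 (0.00146), and it also passed with DESeq2 (-1.11) and with library size alone (-1.16).

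**Figure D5:**
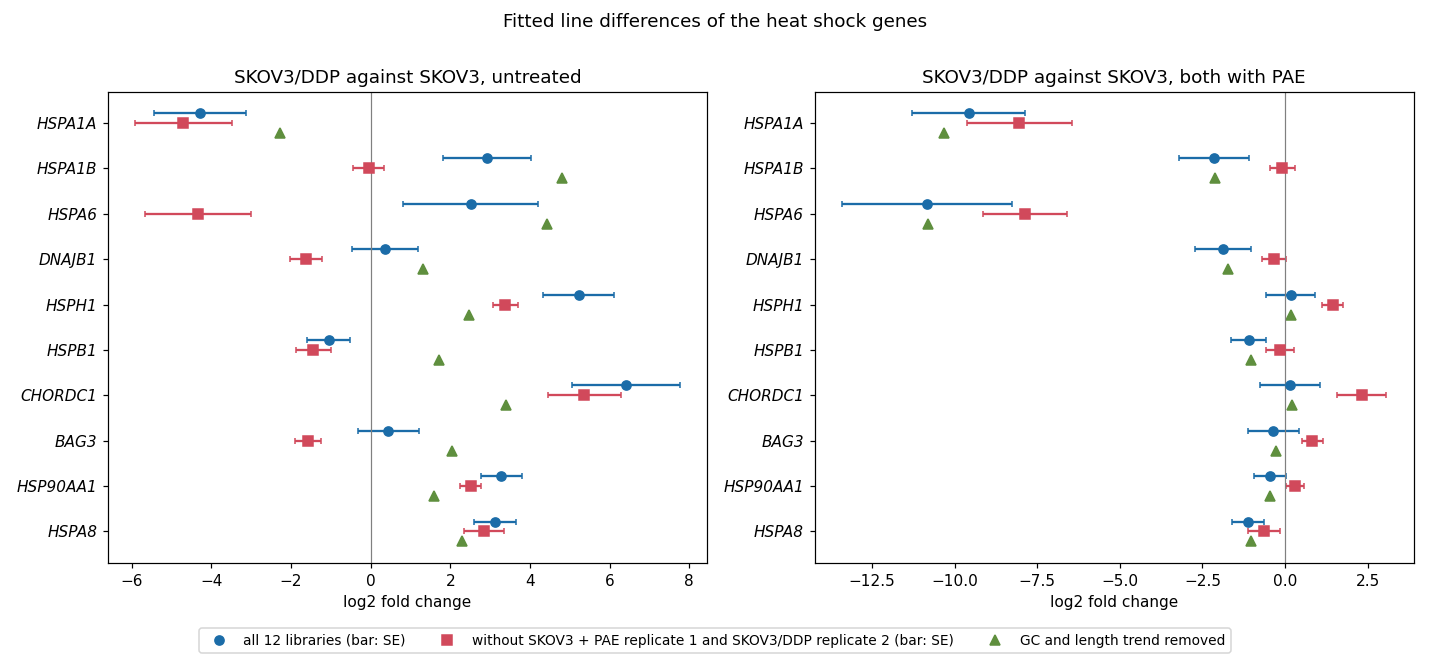
Fitted log2 fold changes of SKOV3/DDP against SKOV3, untreated (left) and with PAE in both (right), for the 10 genes, with the same symbols as the plot of PAE effects. Untreated, CHORDC1, HSPH1, HSP90AA1 and HSPA8 are above 2.5 with and without the 2 libraries, and HSPA6 moves from 2.51 to -4.33; with PAE in both, HSPA6 is at -10.83 and -7.86.

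The RNA of HSF1 itself did not pass the test with PAE in either line, and the activity of the factor was not measured. It stood at 21.8, 22.8 and 42.3 CPM in untreated SKOV3, at 12.2, 28.4 and 11.3 with PAE, at 1.10, 19.8 and 24.9 in untreated SKOV3/DDP and at 16.3, 10.2 and 9.19 with PAE. Its log2 fold changes were -0.74 ± 0.67 in SKOV3 (adjusted p = 0.327) and -0.36 ± 0.67 in SKOV3/DDP (0.744). Its lowest value was in replicate 1 of untreated SKOV3/DDP, and in the 2 libraries where the 10 genes were highest it lay between the values of the other replicates. HSF2, a relative that can bind the same elements, rose with PAE in both lines: by 4.05 ± 0.30 in SKOV3 (adjusted p = 2.09e-08) from 1.15, 1.02 and 2.03 CPM, and by 0.88 ± 0.24 in SKOV3/DDP (0.016). Its transcript has 40.5% GC, and with the trend removed the rise in SKOV3 was 1.58 (0.000105). HSBP1, a small protein that binds HSF1, fell with PAE in SKOV3 by 0.82 ± 0.27 (adjusted p = 0.0131) but did not pass without SKOV3 replicate 2 (0.107), and scaled by library size alone its value was 0.07 (0.852), whereas with the GC trend removed it was -3.28 (3.14e-05). HSF4, expressed in the lens in particular, fell with PAE in SKOV3/DDP by 0.91 ± 0.32 (adjusted p = 0.0495), and did not pass without SKOV3/DDP with PAE replicate 3 (0.187) or by library size alone (0.116).

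The wider chaperone network was described by 62 further genes in 8 lists, of which 57 were tested. With PAE in SKOV3, 34 of the 57 rose, against 42.6% of all genes, and 14 fell, against 32.7%, and their median log2 fold change was 1.68, against 0.48 over all genes tested. With the GC and length trend removed, 21 rose and 12 fell, against 28.2% and 21.9% of all genes in that fit. TRiC, the ring-shaped chaperonin that folds actin and tubulin, had 6 of 8 subunits up and 1 down. CCT8 rose by 4.23 ± 0.30 (adjusted p = 1.73e-08) and CCT2 by 4.06 ± 0.23 (1.11e-08). With the trend removed they rose by 2.53 (1.7e-06) and 2.96 (7.02e-08). Unlike the 10 genes above, CCT8 was even over the libraries of SKOV3 with PAE, at 324, 305 and 312 CPM, against 25.4, 9.54 and 15.2 in untreated SKOV3.

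Of 9 other HSP70 proteins tested, 8 rose with PAE in SKOV3 and 1 fell. Over all genes 42.6% rose and 32.7% fell, the shares beside which the lists here stand. HSPA13, an HSP70 of the endoplasmic reticulum, rose by 3.67 ± 0.46 (adjusted p = 2.69e-06), but with the GC trend removed its value was 0.50 (0.283). HSPA12B, a distant relative, fell by 3.79 ± 0.45 (1.8e-06), and its value was -1.50 (0.00406) with the trend removed. Of 15 HSP70 co-chaperones, 10 rose and 5 fell. DNAJB4, a J-domain relative of DNAJB1, rose by 4.46 ± 0.60 (6.72e-06), and STUB1, the ubiquitin ligase that marks chaperone clients for degradation, fell by 3.40 ± 0.28 (4.6e-08). With the trend removed these were 1.40 (0.0478) and -0.57 (0.0296). Of 10 genes for HSP90 and its co-chaperones, 5 rose and 3 fell. CACYBP rose by 2.41 ± 0.40 (5.64e-05) and UNC45A, which helps HSP90 fold myosin, fell by 2.89 ± 0.23 (4.07e-08). With the trend removed CACYBP was at -0.32 (0.492) and UNC45A at -1.01 (0.000378).

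Among the mitochondrial chaperones, HSPD1 (HSP60) rose with PAE in SKOV3 by 3.50 ± 0.41 (adjusted p = 1.37e-06) and TRAP1, the mitochondrial HSP90, fell by 2.12 ± 0.20 (1.78e-07), with 1.86 and -0.51 after removal of the GC trend, whereas HSPE1 (HSP10), the third of the list, did not pass. SERPINH1, the collagen chaperone HSP47, fell by 1.96 ± 0.38 (0.000263), and with the GC trend removed its value was -0.55 (0.239). Of 4 genes tested from the list of small heat shock proteins, 2 rose and 1 fell, against 42.6% and 32.7% of all genes. HSPB11 rose by 0.69 ± 0.25 (0.0191), and without replicate 1 of SKOV3 with PAE it did not pass (0.0908).

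With PAE in SKOV3/DDP, 11 of the 57 genes rose, against 11.8% of all genes, and 5 fell, against 14.7%, with a median log2 fold change of 0.14 against 0 over all genes tested. HSP90 co-chaperones were the list with the most, 4 of 10 up and 0 down. AHSA1, which activates the HSP90 ATPase, rose by 1.3 ± 0.24 (adjusted p = 0.00171), from 61.6, 93.2 and 62.7 CPM to 212, 169.7 and 154 CPM. PPID, a peptidyl-prolyl isomerase bound to HSP90, rose by 1.24 ± 0.27 (0.00486). Of the other HSP70 proteins 3 of 9 rose and 0 fell, among them HSPA4L at 1.43 ± 0.37 (0.0112) and HSPA14 at 0.96 ± 0.27 (0.0178), of which HSPA14 did not pass without SKOV3/DDP replicate 3 (0.0553).

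Of the 15 HSP70 co-chaperones, 2 rose and 1 fell with PAE in SKOV3/DDP, against 11.8% and 14.7% of all genes. DNAJB6 rose by 0.84 ± 0.28 (adjusted p = 0.0362, and 0.134 without SKOV3/DDP replicate 3) and STUB1 fell by 1.28 ± 0.26 (0.00304). TRAP1 fell by 0.95 ± 0.20 (0.00315). SERPINH1 fell by 2.06 ± 0.38 (0.00171), by 1.89 with the GC trend removed and by 1.34 without SKOV3/DDP replicate 2. UBB, a polyubiquitin gene, fell by 0.68 ± 0.24 (0.0488) and did not pass without replicate 3 of SKOV3/DDP with PAE (0.165) or by library size alone (0.137). None of the 8 TRiC subunits passed in SKOV3/DDP, in either direction, by this edgeR test.

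Across the 12 libraries, the genes of 10834 ranked whose log2(CPM + 1) followed HSPA6 most closely included DNAJB1 (Pearson r = 0.912), HMOX1 (0.839), EZR (0.836) and HSPA1B (0.824). HMOX1 encodes heme oxygenase 1, a stress-inducible enzyme that breaks down heme. CHORDC1 was followed by CDK5R1 (0.929), HSPH1 (0.927), LOC107984138 (0.923), HSPA5 (0.922) and DNAJB4 (0.922). HSPA5 is the HSP70 protein of the endoplasmic reticulum. These correlations describe 12 libraries in 4 groups, which are not independent points. The untreated SKOV3 libraries, where CHORDC1, HSPH1 and DNAJB4 were all low, are part of the comparisons whose fold changes followed GC content above.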

How the data were processed

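RNA was sequenced from 12 libraries of SKOV3 and SKOV3/DDP cells, poly-A selected and prepared with the NEBNext Ultra kit. Each library came as a table of raw counts by NCBI Gene ID on GRCh38, deposited by the authors as whole numbers. The submitters' processing notes name HISAT2 2.0.5, StringTie 1.3.3b, DESeq2 and edgeR without their roles, and the counting strand is not given in the sources used here. Loci without a gene name (0.126% to 0.678% of counts) were left out. Genes were filtered with filterByExpr, scaled by TMM and tested in 1 fit of 12 libraries and 4 groups with the quasi-likelihood test of edgeR 4.0.16 (R 4.3.3), with Benjamini-Hochberg adjustment over 17133 genes. Standard errors were taken as the size of the log2 fold change over the root of its F statistic. GC content came from GENCODE 29 transcripts (91.5% of tested genes), and the trend was fitted with splines of 5 degrees of freedom.

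The 10 genes and the lists were chosen with earlier results of these data known. Per list and PAE comparison, the text names at most the 2 genes with the largest change at an adjusted p under 0.05, given that the higher group averaged 10 CPM or more, beside HSF1 and HSF2. As likeness it names genes among the 5 closest protein-coding ones averaging 5 CPM or more. A result that the rule would name is not reported here for some genes. The fits were tested on simulated data. Alternatives were DESeq2 1.42.0, library size alone, no filter on low counts, 10 or more counts in every library, a replicate block, the 6 libraries of a comparison, removal of the GC and length trend, the summed HSPA1 pair and each library left out. Removing 2 libraries together was added after seeing the data. A chi-square comparison of counts found no duplicate libraries.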

Additional observations from a re-analysis of the deposited data

Results flagged for a closer look

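The effect of PAE differed between the lines, by the interaction term of the edgeR fit (SKOV3/DDP minus SKOV3, log2 scale), for the chaperone genes given here. These genes were named by the size of their PAE effect, which is part of this difference. Their adjusted p-values for it are therefore a description. In all of these differences the untreated SKOV3 libraries are part of the contrast. Fold changes in other contrasts with those libraries correlated with GC content at r = -0.757 (PAE in SKOV3) and -0.471 (untreated lines). In contrasts without them r was -0.127 (PAE in SKOV3/DDP) and 0.00208 (PAE in both lines). Across genes the difference correlated with GC content at r = 0.667, and at -0.00265 with the GC and length trend removed. The difference was below 0 for CCT8 (-4.03), CCT2 (-3.83), DNAJB4 (-4.62), HSPD1 (-3.32), HSF2 (-3.17), HSPA13 (-2.62), HSPA14 (-2.42), HSPA4L (-2.17), CACYBP (-1.97) and HSPB11 (-1.06). It was above 0 for HSPA12B (3.44), UNC45A (2.93), STUB1 (2.12), AHSA1 (1.46), HSBP1 (1.28) and TRAP1 (1.16). With the trend removed, 8 of them passed in the same direction: CCT2 (-2.70), CCT8 (-2.37), HSPB11 (-2.37), DNAJB4 (-1.89), HSPD1 (-1.68), HSF2 (-0.80), UNC45A (1.29) and HSBP1 (3.74). Of all genes tested, 37.4% passed below 0 and 25.5% above 0, and with the trend removed 22.7% and 19.4% did. HSPA12B (1.42), AHSA1 (0.56) and HSPA14 (-0.53) then did not pass, nor did HSPA13 (0.23), CACYBP (0.65), HSPA4L (1.07), STUB1 (-0.40) and TRAP1 (-0.27), whose sign had changed. Without that removal the adjusted p-values lay between 2.17e-07 (CCT2) and 0.0141 (HSPB11). Of the named genes that rose with PAE in SKOV3/DDP, AHSA1 was the one with a difference above 0 that passed with TMM. For SERPINH1, which fell in both lines, the difference was -0.11 (adjusted p = 0.898).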

How the results depend on the processing

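Depth limits HSPA1A in SKOV3/DDP, HSPA6 in SKOV3/DDP and CHORDC1 in untreated SKOV3, where groups held at most 10 counts outside the high library, and intervals cover counting error only. Of the 10 genes, between untreated lines, 5 were higher (45.8% of all genes) and 8 with the GC and length trend removed (36.8%). The 1 lower (36% of all genes) became 2 with DESeq2 (38.5%), without a filter (21%) or with 6 libraries (38.5%). It became 0 with at least 10 counts in every library (7 genes left, 38.8% of all genes), with the trend removed (33.4%) or with the HSPA1 pair summed (36%). With 2 libraries removed (SKOV3 with PAE replicate 1 and SKOV3/DDP replicate 2) it became 5 (35.1%). With each library left out it was 1 to 5 (33.5% to 35.9%). With PAE in both lines, 0 higher (27.5% of all genes) became 3 with 2 libraries removed (25.4%) and 0 to 1 with each left out (23.3% to 28.3%). The 3 were HSPH1, BAG3 and CHORDC1, the last counted as a description only. The 2 lower (27.1%) became 6 without a filter (16.6%), 0 with at least 10 counts (25.1%) and 1 with the pair summed (27.1%). They became 2 to 5 with each left out (24.2% to 27.4%). Of the other chaperone genes, 34 higher with PAE in SKOV3 (42.6% of all genes) became 21 with the trend removed (28.2%). In SKOV3/DDP the 11 higher (11.8% of all genes) became 5 to 14 with each library left out (6.47% to 12.9%). The 5 lower (14.7%) became 3 with library size alone (11.2%) or 2 libraries removed (13%), and 3 to 4 with each left out (9.26% to 15.1%). Members at -1 or less with PAE in SKOV3 numbered 0 (32.1% of all genes), 1 with DESeq2, the replicate block, 6 libraries or 2 removed, and 0 to 1 with each left out. In SKOV3/DDP those at 1 or more went from 0 (12.3% of all genes) to 3 with 2 removed (0 to 3 with each left out). Those at -1 or less went from 4 (15.9%) to 1 (1 to 7 with each left out). For these cutoffs the share of all genes is given only for the edgeR fit of all 12 libraries with TMM.

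Several directions turned, on the log2 scale; the cause was not tested beyond the libraries removed. With 2 libraries removed, DNAJB1 was at -0.020, HSPA1A at -0.74 and BAG3 at -0.63 with PAE in SKOV3, and in SKOV3/DDP HSPA1B was at 0.40, HSPH1 at 1.12, DNAJB1 at 1.26, BAG3 at 1.77, CHORDC1 at 0.91 and HSP90AA1 at 0.63. Between untreated lines, HSPA1B was then at -0.051, HSPA6 at -4.33, DNAJB1 at -1.62 and BAG3 at -1.57, and with PAE in both BAG3 was at 0.83 and HSP90AA1 at 0.31. With the trend removed HSPB1 was at 1.73 between untreated lines and at 2.0 with PAE in SKOV3. With each library left out, ranges crossed 0 with PAE in SKOV3 for DNAJB1 (-0.022 to 2.01), HSPA1A (-0.75 to 1.33) and BAG3 (-0.63 to 1.01). In SKOV3/DDP they did so for HSPA1B (-3.06 to 0.40), DNAJB1 (-1.15 to 1.26), HSPH1 (-1.14 to 1.12), CHORDC1 (-0.60 to 0.91), BAG3 (-0.68 to 1.77) and HSP90AA1 (-0.43 to 0.63). Between untreated lines they were -0.047 to 3.41 (HSPA1B), -4.33 to 3.06 (HSPA6), -1.62 to 0.78 (DNAJB1) and -1.57 to 0.87 (BAG3). With PAE in both they were -0.24 to 1.43 (HSPH1), -0.41 to 2.31 (CHORDC1), -0.82 to 0.82 (BAG3) and -0.78 to 0.29 (HSP90AA1).

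Replicate numbers did not pair the samples: deviations of same-numbered libraries correlated between -0.246 and 0.18. With the replicate block DNAJB1 between untreated lines was at -0.014 and HSPA1B no longer passed (2.31, adjusted p = 0.082). Over all genes the block left 7775 higher and 6090 lower between untreated lines, against 7848 and 6162.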

Other observations

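A pair of heat shock genes outside the 10, chosen after their values were seen, was nearly absent from SKOV3/DDP. DNAJA4, a J-domain protein induced by heat, had 770 counts over the untreated SKOV3 libraries and 2 over untreated SKOV3/DDP, a ratio of 548 (95% counting interval 151 to 4530). With PAE it stood at 361, 86.4 and 63.2 CPM in SKOV3, highest in replicate 1, and at 0.0981, 0.47 and 0.11 CPM in SKOV3/DDP. HSPB8, a small heat shock protein that works with BAG3, had 871 against 7 counts untreated, a ratio of 177 (85.5 to 442). In the high library of untreated SKOV3/DDP, replicate 2, DNAJA4 had 0 counts and HSPB8 had 1.

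Among protein-coding genes reaching 50 CPM, HMOX1 had the widest range in untreated SKOV3/DDP, at 15.0, 1484 and 13.3 CPM. DDIT3 (24.6, 586 and 58.0 CPM), a transcription factor of the unfolded protein response, and SLC7A11 (57.0, 902 and 70.9 CPM), the cystine transporter, were also highest in replicate 2. In SKOV3 with PAE the immediate early genes FOSB (312, 110 and 3.58 CPM) and ARC (135, 24.0 and 1.84 CPM) were among the 5 widest, and were highest in replicate 1, as 32.8% of all genes were. CUTA (0.755, 40.1 and 61.8 CPM), also wide, was highest in replicate 3.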
